A study of Homo sapiens with 8 samples.

Results

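Genes of the hypoxia-inducible factor (HIF) pathway and of glycolysis were examined in podocytes after induction of LATS2, a kinase of the Hippo pathway whose substrate is the coactivator YAP. The set holds 40 genes, chosen by name and found in the gene column of a deposited table. The table lists 29004 loci, and 26863 carry a gene name. Each of the 40 genes had exactly 1 row. They comprise 3 HIF subunits, 5 oxygen sensors and factors of HIF turnover, 7 hypoxia targets, 4 collagen and matrix enzymes, 15 glycolytic enzymes, 4 regulators of glycolytic flux and 2 lactate dehydrogenase subunits.

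RNA sequencing covered 8 samples of stably transduced AB8/13 cells, immortalized human podocytes kept at the temperature at which this line proliferates. A lentivirus had given the cells wild-type LATS2 under a promoter that responds to doxycycline. The drug was given to 4 samples at 125 ng/mL for 8 h (LATS2 OE), and 4 samples received none (untreated). No oxygen level is named in the labels, and both groups were grown in the same medium. Effects of doxycycline itself and of LATS2 cannot be told apart, since no sample without the construct was treated. The deposited values are FPKM, a density of sequenced fragments scaled to exon length and library size, pooled by the authors to 1 value per group. Values of single samples were therefore not seen, and no SD, standard error or p-value was computed for any ratio below. The table also holds the authors' own test of this comparison, which was not used here. Depth per sample is unknown.

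HIF is a heterodimeric transcription factor. Its alpha subunit, HIF-1α (HIF1A) or HIF-2α (EPAS1), is hydroxylated by the EGLN prolyl hydroxylases when oxygen is present and is then bound by VHL and degraded. In hypoxia the alpha subunit persists, pairs with ARNT and binds a short core motif in DNA, and many glycolytic enzymes are known targets. In podocytes, glycolysis is known as a main source of energy for the foot processes. The values below are of mRNA, whereas control of HIF by oxygen acts mainly on the protein.

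The promoters of HIF1A, PFKFB4, HK2, ADM and LDHA were searched for ACGTG and GCGTG, both forms of the core motif that HIF binds. The first 4 differed most between the groups among genes of at least 1 FPKM. LDHA carried the most matches to ACGTG when the palindrome CACGTG is counted on each strand. LOX, with 4 matches, held 0 CACGTG. Shown are the 250 bases before the annotated start from RefSeq (GRCh38.p14), 5′ to 3′ on the strand of the gene. Capitals mark ACGTG and GCGTG on either strand, and adjoining or overlapping matches run together.
HIF1A: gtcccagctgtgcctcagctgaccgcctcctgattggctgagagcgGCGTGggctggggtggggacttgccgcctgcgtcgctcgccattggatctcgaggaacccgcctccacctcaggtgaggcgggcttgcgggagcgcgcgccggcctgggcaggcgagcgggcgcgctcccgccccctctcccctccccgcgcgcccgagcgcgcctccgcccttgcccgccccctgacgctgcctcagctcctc
PFKFB4: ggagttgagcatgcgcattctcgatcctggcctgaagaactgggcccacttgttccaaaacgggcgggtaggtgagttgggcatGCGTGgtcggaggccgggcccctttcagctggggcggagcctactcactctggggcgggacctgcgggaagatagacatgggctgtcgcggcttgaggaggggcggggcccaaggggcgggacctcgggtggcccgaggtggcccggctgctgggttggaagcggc
HK2: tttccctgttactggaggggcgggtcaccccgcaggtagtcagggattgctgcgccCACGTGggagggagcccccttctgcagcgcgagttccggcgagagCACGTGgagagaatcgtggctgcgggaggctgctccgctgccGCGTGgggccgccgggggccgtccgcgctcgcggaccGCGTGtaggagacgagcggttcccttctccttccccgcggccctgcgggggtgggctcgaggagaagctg
ADM: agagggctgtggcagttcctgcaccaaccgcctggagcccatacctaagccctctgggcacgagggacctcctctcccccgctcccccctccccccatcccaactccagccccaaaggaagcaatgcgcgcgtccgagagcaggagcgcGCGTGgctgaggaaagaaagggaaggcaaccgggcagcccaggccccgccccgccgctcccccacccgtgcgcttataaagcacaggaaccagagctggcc
LDHA: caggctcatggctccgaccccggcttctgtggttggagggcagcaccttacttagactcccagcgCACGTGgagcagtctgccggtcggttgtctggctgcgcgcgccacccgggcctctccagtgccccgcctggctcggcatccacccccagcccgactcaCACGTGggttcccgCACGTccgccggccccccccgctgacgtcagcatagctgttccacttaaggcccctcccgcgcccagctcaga
These windows lie at chr14:61695263-61695512 (plus strand) for HIF1A, chr3:48556804-48557053 (minus strand) for PFKFB4, chr2:74834920-74835169 (plus strand) for HK2, chr11:10304823-10305072 (plus strand) for ADM and chr11:18394313-18394562 (plus strand) for LDHA. The HK2 window held 4 matches to ACGTG and the LDHA window held 5. Each of these windows holds 2 CACGTG, counted on both strands, so the matches stand at fewer places than their count. The windows of HIF1A, PFKFB4 and ADM held 0 matches to ACGTG and 1 match to GCGTG each. A match is a stretch of letters, and 0 matches says only that these letters are not in this window.

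The decimal point of most values from 1 to under 1000 FPKM was lost in the deposited table, so their level is known only up to a power of 10. The ratio of LATS2 OE to untreated was read as the ratio nearest to 1 that the digits allow. Levels are given here as the lowest FPKM that the digits allow at this ratio, written "at least". At another ratio a lower level can be allowed, as for ARNT in LATS2 OE cells. At the ratio nearest to 1 the level was settled for 7 of the 40 genes, could be 10 times as high for 8, and 10 or 100 times as high for 25. The ratio itself was settled by the digits for 6 genes, among them GAPDH and ENO1. For the other genes but ADM, the next reading lay at least as far from 0 as the -2.57 of PFKFB4 on the log2 scale. Among 89 named loci of at least 1 FPKM whose digits settle the ratio, 0 had an absolute log2 ratio above 1, and among 817 named loci below 1 FPKM with a mean of at least 0.5 FPKM, 10 did. A locus with 1 group at 1000 FPKM or more and the other below is mostly not settled. Large ratios are thus largely kept out of the 89 by how these were selected, and the 89 cannot show how often large ratios occur at other levels.

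LATS2 itself, the induced gene, was at least 2.64 FPKM in untreated and at least 5.31 FPKM in LATS2 OE cells. Its digits allow a value 2.01-, 20.1- or 201-fold higher in LATS2 OE, but also 4.97- or 49.7-fold lower, so its FPKM digits alone do not check the labels. The podocyte markers SYNPO, PODXL, CD2AP, ACTN4, PLA2R1 and KIRREL each had a mean of at least 1 FPKM. NPHS1, which encodes nephrin of the slit diaphragm, was 0.00875 FPKM in untreated and 0.00616 FPKM in LATS2 OE cells, and WT1 was 0.413 and 0.412 FPKM. NPHS1 was thus near 0 in both groups, beside clear values of SYNPO and PODXL. All 5 endothelial markers were below 1 FPKM in both groups. In a bulk sample, fewer cells that express a gene and less RNA per cell cannot be told apart.

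After 8 h of LATS2 the glycolytic enzymes stood near their untreated level, and the larger differences lay at HIF1A, PFKFB4, HK2 and ADM. At the ratio nearest to 1, HIF1A was 1.55-fold and PFKFB4 1.69-fold higher in LATS2 OE cells, and HK2 was 1.47-fold lower. ADM differed by at least 2.78-fold, and its direction was called open. The digits alone settle none of these 4 ratios, and the next reading of each has the opposite direction. Of the 40 genes, 36 had a mean of the group values of at least 1 FPKM, and 4 of these 36 were past an absolute log2 ratio of 0.5, a 1.41-fold difference used here as the threshold. Among all 12066 named loci that passed the same filter, 4.52% were past it. By direction, 2 genes of the set were higher and 1 was lower, against 1.52% and 2.05% of the named loci, with loci called open counted in neither. The median log2 ratio of the 36 genes was 0.0095, beside -0.0037 over all named loci, and 22 of the 36 lay within 0.1 of 0, a share of 61.1% beside 61.3% over all named loci. With so few genes past the threshold and no error on any ratio, the higher share past it is a description only. At a threshold of 0.3, 8 of the 36 genes were past it beside 10.5% of all named loci, and at a threshold of 1 only ADM was past it beside 0.945%.

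**Figure D1:**
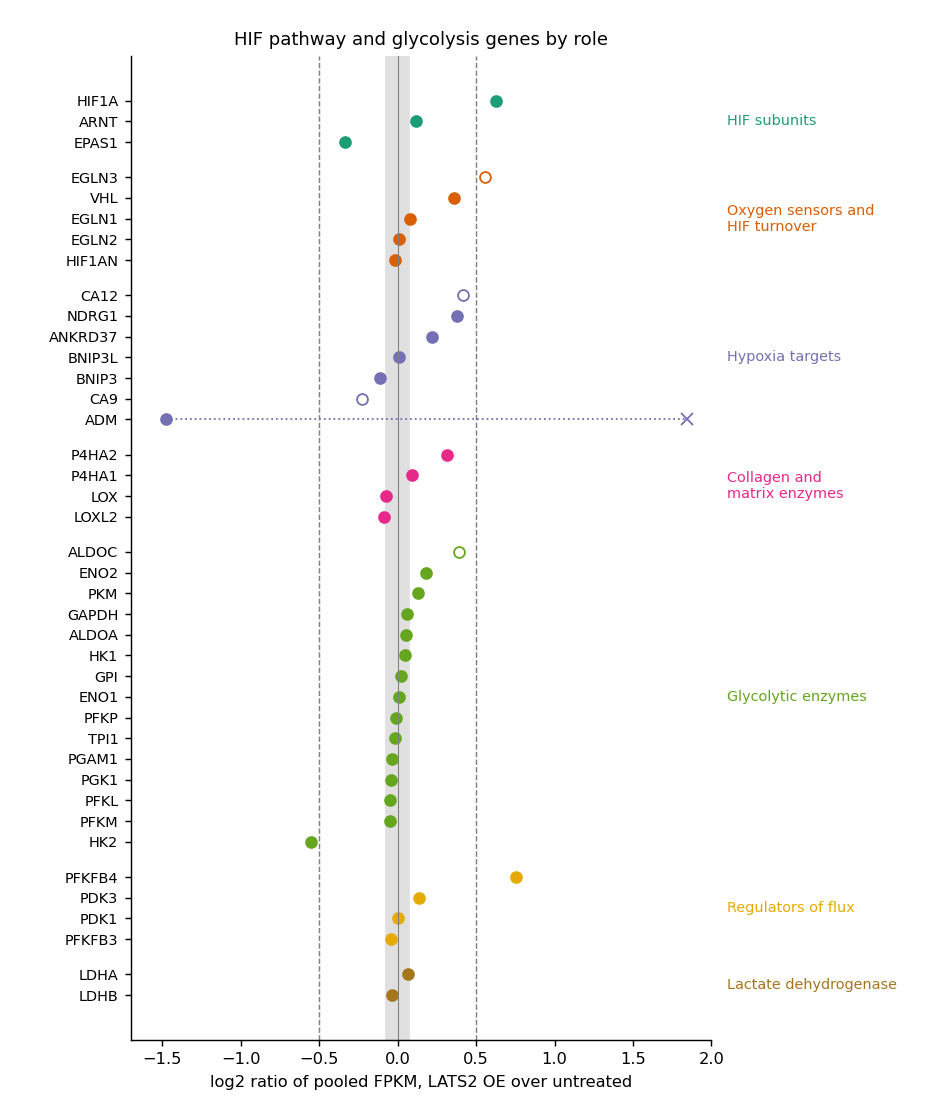
Log2 ratio of pooled FPKM in LATS2 OE over untreated (x axis) for each of the 40 genes, grouped by role; open circles are the 4 genes below a mean of 1 FPKM, the grey band is the interquartile range of 12066 named loci and dashed lines mark ±0.5. The cross joined to ADM is the next reading its digits allow, 1.84. HIF1A, PFKFB4 and HK2 stand outside the dashed lines, while 11 of the 14 glycolytic enzymes of at least 1 FPKM lie within 0.1 of 0.

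At the ratios nearest to 1, the genes for the alpha subunits of HIF lay on opposite sides of 0. HIF1A was at least 4.33 FPKM in untreated and at least 6.69 FPKM in LATS2 OE cells, a log2 ratio of 0.63. EPAS1 was at least 2.14 FPKM in untreated and at least 1.69 FPKM in LATS2 OE cells, a log2 ratio of -0.34 that did not reach the threshold. At these readings the balance of HIF1A to EPAS1 mRNA was 1.95-fold higher in LATS2 OE cells, a difference of 0.97 on the log2 scale. Neither ratio is settled by the digits, and neither carries an error. With a pseudocount of 1 FPKM added at the lowest level, the log2 ratios were 0.53 for HIF1A and -0.22 for EPAS1. ARNT, the shared beta subunit, was at least 9.55 and 10.4 FPKM, a log2 ratio of 0.12. HIF1A lies on chromosome 14 of hg19 from 62147759 to 62215807 on the plus strand, and EPAS1 on chromosome 2 from 46524541 to 46613842 on the same strand. Exons of HIF1A overlap the antisense genes HIF1A-AS1 and HIF1A-AS3 in GENCODE, and ENSG00000258964 on the same strand. Strand is not kept by the library kit that the labels name, and how reads were divided among these genes was not tested. HIF1A-AS3 and ENSG00000258964 had no row under these names. HIF1A-AS1 had a row of its own at 0.602 FPKM in untreated and 0.400 FPKM in LATS2 OE cells, a log2 ratio of -0.59, opposite in sign to that of HIF1A.

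The oxygen sensors and the degradation factor were mostly level with untreated cells. EGLN1, the main HIF prolyl hydroxylase in most cells, was at least 1.06 and 1.12 FPKM with a log2 ratio of 0.08. EGLN2, another HIF prolyl hydroxylase, was at least 4.43 and 4.46 FPKM with a log2 ratio of 0.0098, from a row that also holds MIA and RAB4B. HIF1AN, the asparaginyl hydroxylase that limits the activity of HIF, was at least 1.14 and 1.12 FPKM, a log2 ratio of -0.02. Its exons overlap NDUFB8 on the opposite strand, which was 136 FPKM in untreated cells with a log2 ratio of -0.09 in its own row. How reads were divided between HIF1AN and NDUFB8 was not tested. VHL, the substrate receptor of the ubiquitin ligase that marks HIF-α for degradation, was at least 1.62 in untreated and 2.07 FPKM in LATS2 OE cells, a log2 ratio of 0.36 below the threshold. EGLN3, a prolyl hydroxylase that is itself a HIF target, was 0.341 FPKM in untreated and 0.501 FPKM in LATS2 OE cells, a log2 ratio of 0.56. EGLN3 stood below 1 FPKM in both groups, and it was 1 of the 4 genes that the filter removed. Without that filter 5 of the 40 genes were past the threshold, beside 16.6% of all named loci with values above 0 in both groups.

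Hypoxia targets outside glycolysis had ratios on both sides of 0. ADM, which encodes the vasodilator peptide adrenomedullin, was at least 4.06 FPKM in untreated and at least 1.46 FPKM in LATS2 OE cells when read at the ratio nearest to 1, a log2 ratio of -1.48. Its digits also allow a 3.59-fold higher level in LATS2 OE cells, a log2 ratio of 1.84, so ADM is counted as past the threshold without a direction. The authors' log2 fold change in the same table bears on this power of 10 and was not used here, for ADM or for the other genes called open. In either reading it differed more than any other gene of the set. NDRG1, a stress-response gene and common reporter of hypoxia, was at least 7.96 and 10.3 FPKM, a log2 ratio of 0.38. ANKRD37 had a log2 ratio of 0.22 with at least 2.24 and 2.61 FPKM. Its locus from 186317840 to 186347253 on chromosome 4 is 6.38 times as long as the annotated gene and takes in UFSP2. UFSP2 had a log2 ratio of 0.05 in a row of its own. How reads were divided between both was not tested, so the value may not be of ANKRD37 alone. The mitophagy receptor genes BNIP3 and BNIP3L had log2 ratios of -0.11 and 0.0062, with at least 8.00 and 7.41 FPKM for BNIP3 and at least 2.93 and 2.95 FPKM for BNIP3L. BNIP3 has 44 pseudogenes of its name in GENCODE, so reads of near-identical copies may be shared. Exons of BNIP3L overlap PNMA2 on the opposite strand, with a log2 ratio of -0.22 in its own row.

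The carbonic anhydrases that regulate pH outside the cell were low. CA9, a widely used marker of HIF-1 activity, was 0.0186 FPKM in untreated and 0.0159 FPKM in LATS2 OE cells. CA12 was 0.311 and 0.416 FPKM, a log2 ratio of 0.42. Both stood below 1 FPKM in both groups, where a small number of fragments sets the ratio and the error of that ratio is unknown.

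**Figure D2:**
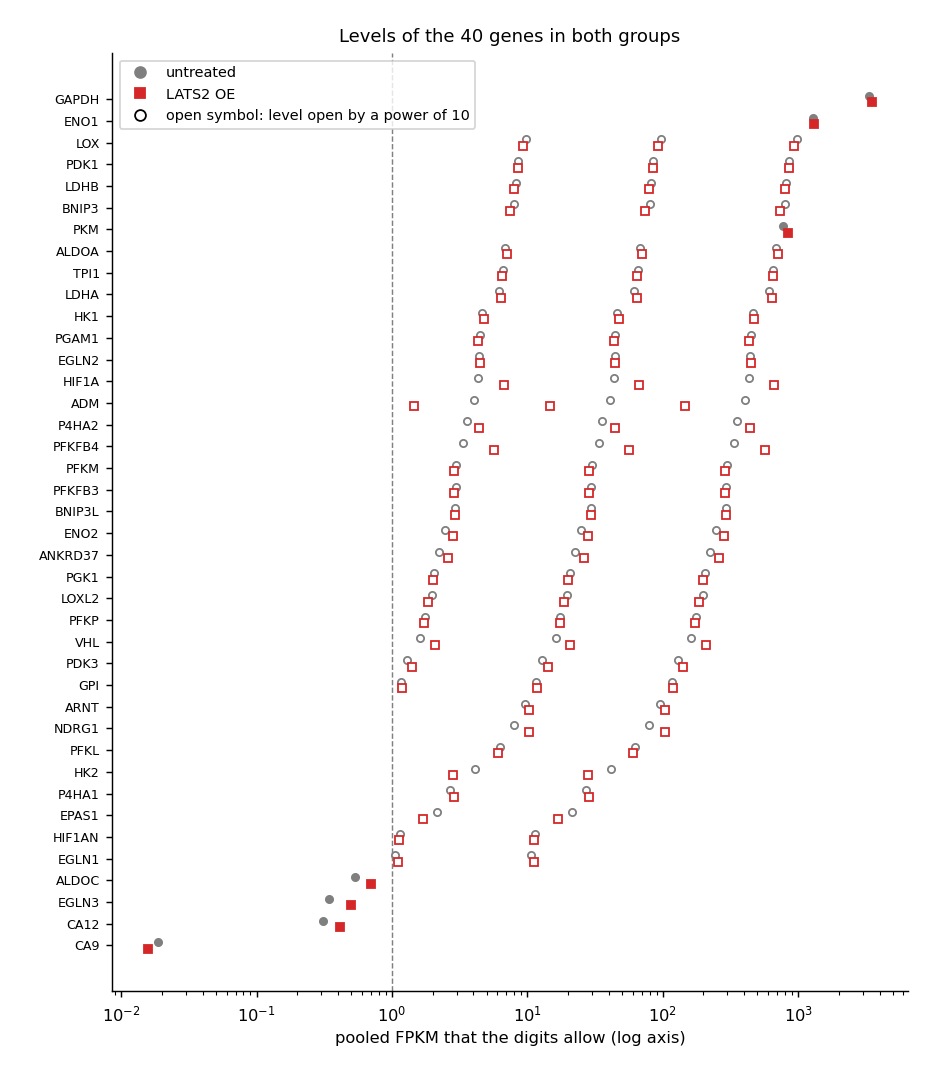
Pooled FPKM that the digits allow (x axis, log scale) for each gene in untreated (grey circles) and LATS2 OE cells (red squares), with filled symbols where the level is settled and open symbols at each level a power of 10 apart. GAPDH and ENO1 stand above 1000 FPKM, PKM has a single level below it at the ratio nearest to 1, and ALDOC, EGLN3, CA12 and CA9 stand below 1 FPKM (dashed line).

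Among the collagen and matrix enzymes, P4HA2 was the furthest from its untreated level. P4HA1 and P4HA2 encode catalytic subunits of the prolyl 4-hydroxylase that stabilizes collagen. P4HA2 was at least 3.57 FPKM in untreated and at least 4.43 FPKM in LATS2 OE cells, a log2 ratio of 0.31, while P4HA1 had a log2 ratio of 0.09 with at least 2.69 and 2.87 FPKM. Exons of P4HA2 overlap P4HA2-AS1, whose own row had a log2 ratio of 0.28, and without strand the reads of both cannot be told apart. The lysyl oxidases LOX and LOXL2, which crosslink collagen and elastin, had log2 ratios of -0.08 and -0.09. LOX was at least 9.79 FPKM in untreated and at least 9.28 FPKM in LATS2 OE cells, and LOXL2 was at least 1.97 and 1.86 FPKM. Exons of LOX overlap SRFBP1 on the opposite strand, and those of LOXL2 overlap ENTPD4 on the same strand. SRFBP1 and ENTPD4 had log2 ratios of -0.25 and -0.22 in rows of their own.

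Glycolysis opens with hexokinase, and there the isoforms differed. HK2, the inducible hexokinase, was at least 4.12 FPKM in untreated and at least 2.81 FPKM in LATS2 OE cells, a log2 ratio of -0.55 or 68.2% of the untreated level. HK1, the constitutive isoform, was at least 4.61 and 4.76 FPKM, a log2 ratio of 0.05. At the ratios nearest to 1, the HK1 to HK2 balance was 1.52-fold higher in LATS2 OE cells. The digits settle neither ratio, nor which isoform was more abundant. HK2 lies on chromosome 2 of hg19 from 75059782 to 75120481 on the plus strand, and no other coding or long noncoding gene of GENCODE overlaps its exons. HK2 was the only glycolytic enzyme of at least 1 FPKM past the threshold. It stood close to it, and with a pseudocount of 1 FPKM added at the lowest level its log2 ratio was -0.43, short of the threshold.

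The enzymes after hexokinase were nearly level. GPI, which makes fructose 6-phosphate, had a log2 ratio of 0.02, from a row that also holds PDCD2L. The phosphofructokinase genes PFKL, PFKM and PFKP, which encode the committed step, had log2 ratios of -0.05, -0.05 and -0.01. ALDOA, the main aldolase, was at least 6.82 and 7.07 FPKM with a log2 ratio of 0.05. TPI1, PGK1 and PGAM1 had log2 ratios of -0.02, -0.04 and -0.04. PFKM overlaps SENP1 and TPI1 overlaps SPSB2 on the opposite strand, with log2 ratios of 0.07 and 0.11 in rows of their own. PGK1 overlaps ATP7A on the same strand, with a log2 ratio of -0.0095 in its own row.

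GAPDH, ENO1 and PKM, with no lower level at the ratio nearest to 1, showed the same small differences. GAPDH was 3365 FPKM in untreated and 3500 FPKM in LATS2 OE cells, 1.04-fold higher. ENO1, the ubiquitous enolase, was 1295 and 1303 FPKM, 1.01-fold higher. PKM, which makes pyruvate in the last step of the pathway, was 775 and 847 FPKM at the ratio nearest to 1, 1.09-fold higher. GAPDH and ENO1 were the only genes of the set of at least 1000 FPKM. GAPDH has 65 pseudogenes of its name in GENCODE, PGAM1 has 13, LDHA 6 and PKM 5, so these values may include reads of copies. GAPDH is often used as a reference in quantitative PCR, and its log2 ratio of 0.06 lay among those of 8 other reference genes, which ran from -0.06 to 0.09. ACTB, the remaining reference gene, was listed at 0 in both groups.

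ENO2 and ALDOC, less abundant isoforms of enolase and aldolase, had higher ratios than their counterparts. ENO2, the neuronal enolase, was at least 2.49 FPKM in untreated and at least 2.82 FPKM in LATS2 OE cells, a log2 ratio of 0.18 beside 0.0093 for ENO1. ALDOC, the brain aldolase, was 0.538 and 0.705 FPKM, a log2 ratio of 0.39 beside 0.05 for ALDOA. ENO1 was at least 5.21 times as abundant as ENO2 in untreated cells, and ALDOA at least 12.7 times as abundant as ALDOC. ALDOC stood below 1 FPKM in both groups, and neither gene reached the threshold.

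**Figure D3:**
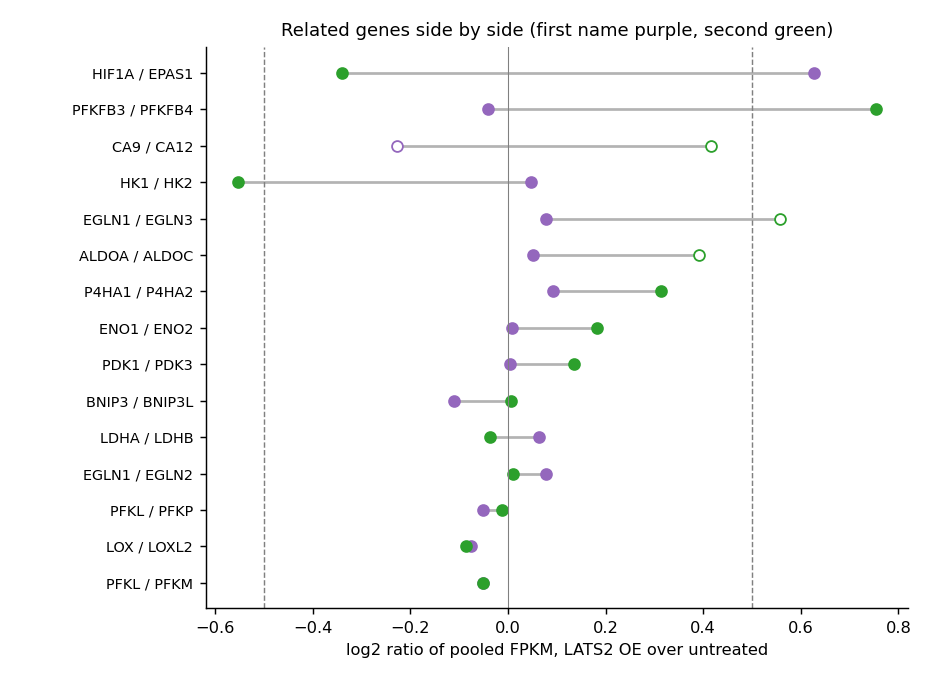
Log2 ratio of pooled FPKM in LATS2 OE over untreated (x axis) for 15 pairs of related genes, the first-named in purple and the other in green, sorted by the distance between the members; open circles are genes below a mean of 1 FPKM and dashed lines mark ±0.5. HIF1A and EPAS1 stand furthest apart at 0.97, followed by PFKFB3 and PFKFB4 at 0.80, and PFKL and PFKM coincide.

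Of the regulators that set the flux through glycolysis, PFKFB4 alone was past the threshold. PFKFB3 and PFKFB4 encode bifunctional enzymes that make and break fructose 2,6-bisphosphate, an activator of phosphofructokinase. PFKFB4 was at least 3.37 FPKM in untreated and at least 5.68 FPKM in LATS2 OE cells, a log2 ratio of 0.75, the highest of the set outside the open reading of ADM. PFKFB3 was at least 2.95 and 2.87 FPKM, a log2 ratio of -0.04, so that the pair differed by 0.80 on the log2 scale. PFKFB4 lies on chromosome 3 of hg19 from 48555117 to 48594227 on the minus strand. Its exons overlap UCN2 on the same strand, and UCN2 had a log2 ratio of 0.58 in its own row, with at least 9.62 and 14.3 FPKM. How reads were divided between PFKFB4 and UCN2 was not tested.

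Of the pyruvate dehydrogenase kinases and lactate dehydrogenase subunits of the set, no gene was past the threshold. PDK1, a kinase that inhibits pyruvate dehydrogenase and a known HIF-1 target, was at least 8.50 and 8.53 FPKM, a log2 ratio of 0.0046. PDK3, a related kinase, was at least 1.29 and 1.42 FPKM, a log2 ratio of 0.14. LDHA, the subunit that favours lactate formation, had a log2 ratio of 0.06 with at least 6.14 FPKM in untreated and 6.42 FPKM in LATS2 OE cells. LDHB, its counterpart, had a log2 ratio of -0.04 with at least 8.19 and 7.98 FPKM.

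**Figure D4:**
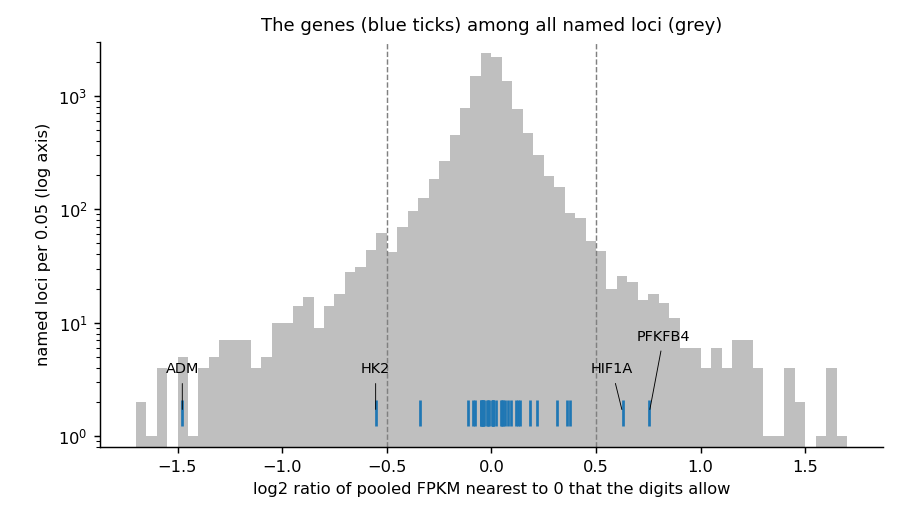
Number of named loci per bin of 0.05 (y axis, log scale) by log2 ratio of pooled FPKM at the reading nearest to 0 (x axis), for 12066 loci of at least 1 FPKM on average, 6 of which lie outside ±1.7 and are not drawn. Blue ticks are the 36 genes of the set that passed the filter, and most stand in the tall centre with HIF1A, PFKFB4, HK2 and ADM outside the dashed lines at ±0.5; the direction of ADM is open.

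ACGTG stood in a larger share of the promoter windows of these genes than of promoter windows at large, while the share with GCGTG was similar. Promoter windows of 300 bases, from 250 before to 50 after each start, were found for 36 of the 40 genes, with 62 windows in all since several genes have more than 1 start. BNIP3L, LOXL2, NDRG1 and VHL had no entry. ACGTG on either strand stood in 27 of the 62 windows (43.5%) and in 21.4% of all 35116 windows. GCGTG on either strand stood in 38.7% of the windows of these genes and 36.5% of all windows. CACGTG, a palindrome that counts as a match to ACGTG on each strand and is also the letters of an E-box, stood in 14.5% and 7.26%.

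Genes with and without ACGTG had near-equal median ratios. Of the genes with at least 1 FPKM on average, 19 had an ACGTG match in some window and a median log2 ratio of 0.0098, and 13 had no match and a median of 0.0093. Among the 19, 14 lay within 0.1 of 0 and only HK2 was past the threshold, beside 61.3% and 4.52% of all named loci. Among the 13 without ACGTG, HIF1A, PFKFB4 and ADM were past it, and these have a GCGTG match each. GCGTG also stands in windows of ENO1, EPAS1, HK1, LDHB, PFKL and PKM, which are of the same 13 and were not past the threshold. LDHA with 5 matches and LOX with 4 had log2 ratios of 0.06 and -0.08, and PGK1 and ANKRD37 with 3 each had -0.04 and 0.22, whereas HK2 with 4 had -0.55. In these counts CACGTG is taken on each strand. LDHA and HK2 hold 2 CACGTG each, ANKRD37 holds 1, and LOX and PGK1 hold 0. Genes with more starts had more windows in which a match could stand. Windows were taken from the annotation, and which start these cells used was not analysed here.

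**Figure D5:**
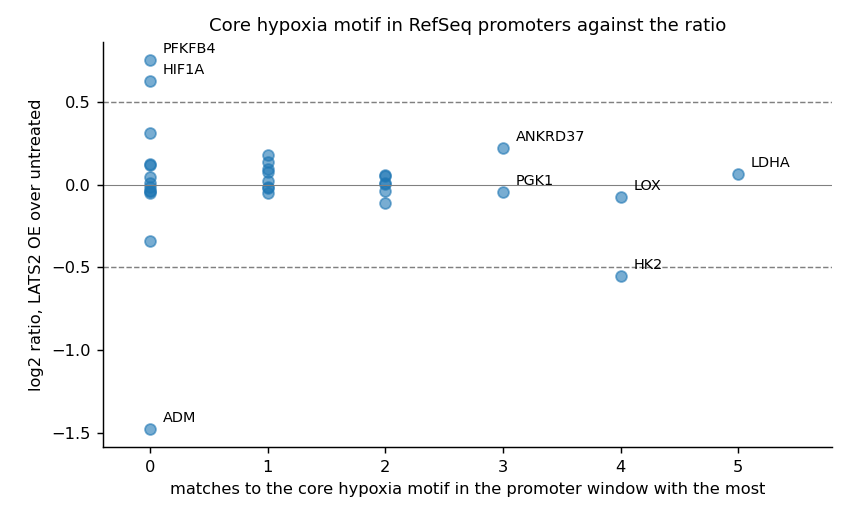
Log2 ratio of pooled FPKM in LATS2 OE over untreated (y axis) against the number of ACGTG matches in the promoter window with the most matches (x axis), for the 19 genes with and the 13 without a match that had at least 1 FPKM on average; dashed lines mark ±0.5. LDHA, LOX, PGK1 and ANKRD37 with 3 to 5 matches lie between the lines and HK2 lies below them, while ADM is drawn at its reading nearest to 0.

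Further genes of the pathway came from lists set beside the 40. Of 34 additional HIF partners and hypoxia targets with a row, 30 had at least 1 FPKM on average and 8 of these were past the threshold, beside 4.52% of all named loci, and 5 of the 8 had an open direction. Among those with a direction, BHLHE40, a HIF-induced repressor and clock component, had a log2 ratio of 0.83 and ANGPTL4, a secreted inhibitor of lipoprotein lipase, one of 0.89. VLDLR, a lipoprotein receptor, had a log2 ratio of -0.51. The open ones were the rows of CITED2, DDIT4, HMOX1 and MIR210, the last shared with its host MIR210HG and counted under both names. VEGFA, the angiogenic growth factor, had a log2 ratio of 0.34, the histone demethylase gene KDM3A 0.35, and the glucose transporter genes SLC2A1 and SLC2A3 -0.17 and 0.44, all below the threshold. The median of this list was -0.0015.

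Of 23 other genes of glycolysis and pyruvate metabolism, 13 had a mean of at least 1 FPKM and 0 were past the threshold, beside 4.52% of all named loci. Their log2 ratios ran from -0.32 for PDP1, a phosphatase that activates pyruvate dehydrogenase, to 0.25 for the muscle enolase ENO3, with a median of 0.02. PDK4, a pyruvate dehydrogenase kinase, was 0.130 FPKM in untreated and 0.253 FPKM in LATS2 OE cells and was removed by the filter. These counts come from ratios of pooled values and from no test, so 0 past the threshold does not show that these genes were unchanged.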

How the data were processed

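RNA of 4 untreated and 4 LATS2 OE samples of AB8/13 podocytes was analysed, with groups taken from the sample titles. The authors selected poly(A) RNA, trimmed reads (Trimmomatic 0.33), mapped these to hg19 by TopHat, and obtained FPKM from Cufflinks. Versions of TopHat, Cufflinks and the annotation were not given in the labels or the paper. The deposited FPKM columns hold the authors' pooled value of each group. The authors' columns of their own comparison (log2 fold change, test statistic, p-value, q-value) were not used. That log2 fold change bears on the lost powers of 10, and so on the directions called open here, and was left aside because it is a result of the study's own comparison. Library totals are not in the columns used, so depth is unknown and no interval was computed. No source says that samples within a group were grown separately.

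A cell under 1 FPKM, of at least 1000 FPKM, or without exactly 3 decimals was taken as computed. Any other cell may have lost its decimal point, and all values from 1 to under 1000 FPKM that its digits allow were listed (Python 3.11.15, pandas 2.3.3). The ratio nearest to 1 was taken. Where it was past 1 on the log2 scale and not settled by the digits, the direction was called open (114 of 12066 loci), a rule set with earlier results of these data known. The rule did not check for a reading of the opposite sign. A locus whose nearest ratio lies beyond 1.66 on the log2 scale has none, yet was also called open and left out of the shares by direction. True ratios beyond 1.66 are misread by this step, except where the digits allow no nearer ratio. Loci with a mean of at least 1 FPKM at the lowest level were kept, no pseudocount was added, and no test was run. A test across samples had been planned only for values per sample.

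The genes, lists, threshold and motifs were likewise chosen with earlier results of these data known. All 40 genes are described, and genes of the further lists are named mainly past the threshold; VEGFA, KDM3A, SLC2A1, SLC2A3, PDP1, ENO3 and PDK4 were chosen after their values were seen. The 8 samples were also checked for markers of other cells: besides endothelial genes, 1 of 4 mesangial and stromal, 1 of 5 tubular and 1 of 4 leukocyte markers (PDGFRB, AQP1 and CD68) had a mean of at least 1 FPKM. Some podocyte markers are not reported here. Annotation of overlaps came from GENCODE v44lift37 on GRCh37, the assembly of hg19. Exons overlapped a gene on the opposite strand for 17 of the 40 genes and another on the same strand for 11. Locus starts were raised by 1 to count from 1.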

Additional observations from a re-analysis of the deposited data

How the results depend on the processing

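The count of genes past the threshold, 4 of 36, was 8 at a threshold of 0.3 (10.5% of all named loci) and 1 at a threshold of 1 (0.945%). It was 0 of 2 where only ratios settled by the digits were kept (0%), and 5 of 40 without a filter (16.6%). With a pseudocount of 1 FPKM at the lowest level it was 3 (2.56% of all named loci), where HK2 is no longer past the threshold. Without ADM, an alternative chosen after seeing the data, it was 3 (4.52%). It stayed 4 with a pseudocount of 0.1 FPKM (4.2%) and with at least 1 FPKM in both groups (4.15%). The count was also 4 after centring (4.52%) and with rows of a single gene (4.51%). Read at the ratio nearest to 1, ADM made the count of lower genes 2 in place of 1, also chosen after seeing the data. The median log2 ratio lay between 0.0077 and 0.033 under all alternatives run. Centring on the median of all named loci changed the sign of 0 of 40 ratios, and pseudocounts of 0.1 and 1 FPKM moved 2 and 9 ratios by at least 0.1 without a change of sign. No paired analysis was possible because the columns hold pooled groups and carry no replicate number, and leaving out single replicates was not run for the same reason. Genes whose ratio is open or far from 1 are the most exposed to the lost decimal point, and low genes such as CA9 to unknown counting error.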
